A study of Rattus norvegicus with 6 samples.

Results

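The 10 genes described here take up glucose, begin and regulate its breakdown, and handle the pyruvate and lactate that result. They were chosen by name from the gene name column of the deposited table, where each of the 10 was found once among 22250 rat genes. They are *Slc2a1* and *Slc2a4*, *Hk1*, *Hk2* and *Hk3*, *Pfkfb3*, *Pdk4*, *Ldha* and *Ldhb*, and *Slc16a3*. The question was how the isoforms typical of heart and muscle compared with those of other cells when hearts from aged donors were set against hearts from young donors. RNA-Seq libraries of polyadenylated RNA came from left ventricular myocardium of 3 young donor hearts (hearts 3, 13 and 15, from rats of 10 weeks) and 3 aged donor hearts (hearts 3, 4 and 7, from rats of 1 year). All 6 donors were Sprague-Dawley rats labelled WT, and the study used males only. Every heart had been kept cold in University of Wisconsin solution, transplanted heterotopically into a young syngeneic recipient without immunosuppressants and taken on day 1 after the operation, so each library carries the effects of storage and reperfusion as well as those of donor age. A heterotopic graft of this kind beats without a normal load. Heart numbers count within a group, so young heart 3 and aged heart 3 are different animals.

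Many steps of glucose metabolism are served by several genes whose proteins catalyze the same reaction in different tissues. Cardiomyocytes hold *Slc2a4*, the insulin-responsive transporter GLUT4, and *Hk2*, the hexokinase of insulin-sensitive muscle, and they are rich in *Ldhb*, the lactate dehydrogenase subunit of oxidative tissue. *Slc2a1*, the basal transporter GLUT1, *Hk1*, the hexokinase found in most tissues, and *Ldha*, the subunit that prevails in glycolytic tissue, are used more widely. *Hk3* is known as a hexokinase of myeloid leukocytes, and *Slc16a3* encodes MCT4, a transporter that lets glycolytic cells release lactate. *Pfkfb3* makes fructose 2,6-bisphosphate, the activator of phosphofructokinase, and *Pdk4* inhibits the pyruvate dehydrogenase complex and so spares glucose.

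The libraries held 21457509 to 24560869 counted reads, and each of the 10 genes was read in every heart. Levels are given as CPM, the reads of a gene scaled to a library of 1000000 reads after TMM adjustment (a trimmed mean of log ratios between libraries), and levels of different genes are compared only after division by gene length. Before any comparison, 2 libraries stood apart from their groups. Over the 10 cardiomyocyte markers in the table, among them the sarcomere genes *Myh6* and *Tnnt2*, the summed level was 85947 and 95438 CPM in young hearts 3 and 13 but 12362 in young heart 15, and it was 7531 and 6579 CPM in aged hearts 4 and 7 but 174 in aged heart 3. Young heart 15 thus lay nearer to aged hearts 4 and 7 than to the other young hearts, and aged heart 3, labelled as myocardium like the rest, held little cardiomyocyte RNA. None of the 10 markers was at 0 there, with *Myh6* at 13.6 and *Tnnt2* at 37.4 CPM. In tissue of mixed cells, fewer cells of a type and less RNA per cell cannot be told apart. The summed level of 10 macrophage markers was 400.1, 369 and 2352 CPM in young hearts 3, 13 and 15 and 3685 to 7093 CPM in aged hearts, and that of 10 neutrophil markers was 17.1, 17.04 and 144 CPM against 355 to 1352 CPM. By the limits defined next, 7 of 8 tested neutrophil markers and 5 of 10 macrophage markers rose in aged donor hearts. Of the 10 cardiomyocyte markers 4 fell, and the median log2 fold change of the 10 was -3.37. In 8 of the 10 all aged hearts lay below all young hearts. Among all genes tested, 13.2% rose, 19.0% fell and 20.6% lay below without overlap. The part of these cell types in the results below was not tested.

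Of the 10 genes, 3 rose and 3 fell in aged donor hearts by the limits of the study's RNA-Seq comparison, which ask for a fold change over 1.5 or under 0.67 and for p under 0.05 before adjustment. Here p came from edgeR's quasi-likelihood test. *Slc16a3*, *Pfkfb3* and *Slc2a1* rose, *Slc2a4*, *Hk1* and *Hk2* fell, and *Hk3*, *Pdk4*, *Ldha* and *Ldhb* were not past the limits. Among all 13784 genes tested, 32.2% were past the limits, 13.2% higher and 19.0% lower, so the share of the 10 genes that rose or fell has to be read against a wide background. In 6 of the 10 genes the aged and young hearts did not overlap, 2 higher and 4 lower, where 41.6% of all genes tested did not (21.0% higher and 20.6% lower). The median log2 fold change was -0.23 over the 10 genes and 0.016 over all genes tested. After Benjamini-Hochberg adjustment, edgeR gave 0 of all genes tested an adjusted p-value under 0.05 (4731 had an unadjusted one, and the smallest adjusted value was 0.0916), limma-voom gave 0 and DESeq2 gave 3592. Of the 10 genes, 6 had an unadjusted p-value under 0.05 in edgeR, and DESeq2 gave 4 an adjusted one. The fit depended on the 2 libraries that stood apart. Without young heart 15, 4 genes rose and 3 fell (26.9% and 24.2% of all genes did), and 7 of the 10 had an adjusted p-value under 0.05 in edgeR, where 48.3% of all genes did. Without young heart 15 and aged heart 3, a combination added once the values were known, 4 rose and 4 fell (27.2% and 26.2% of all genes did).

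**Figure D1:**
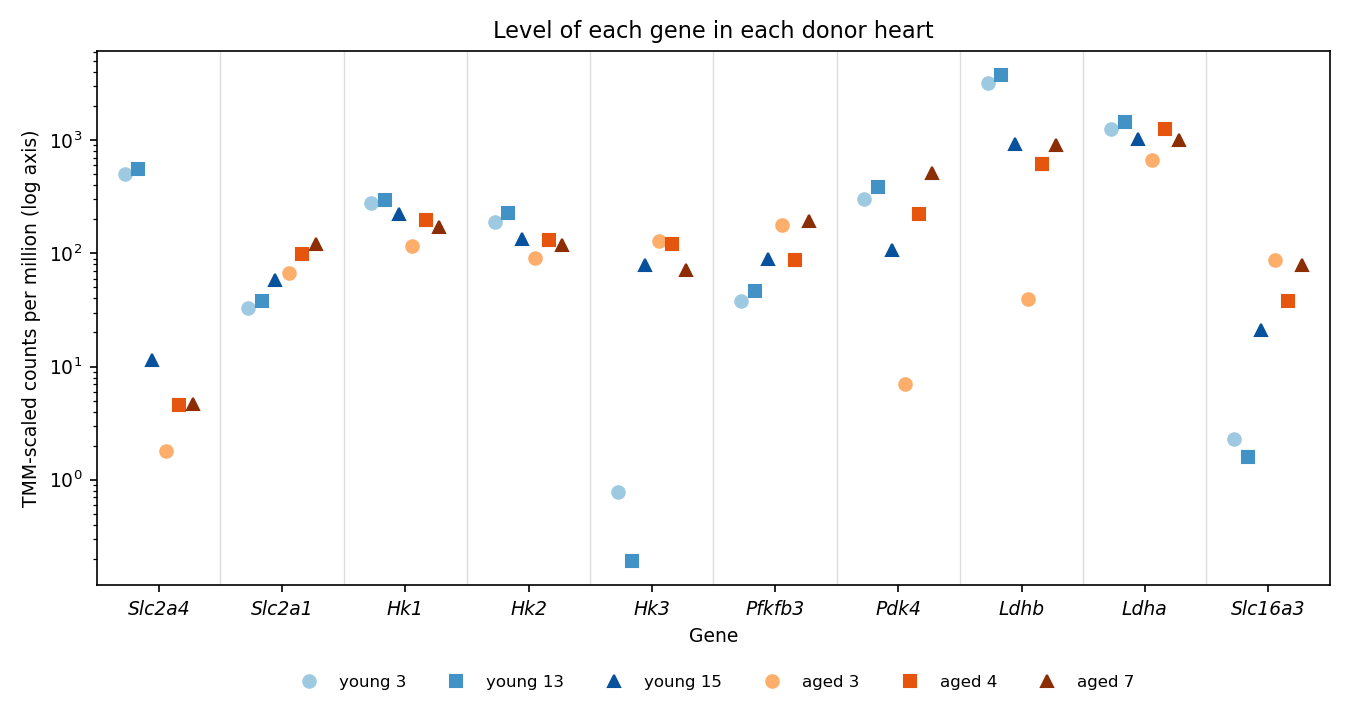
Level of each of the 10 genes in each heart, as CPM on a log axis, with blue points for young and orange to brown points for aged donor hearts. *Slc2a4* and *Hk3* span the widest ranges, and young heart 15 lies away from young hearts 3 and 13 in both.

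The largest difference was that of the glucose transporters. *Slc2a4* (ENSRNOG00000017226, chromosome 10 from 56552983 to 56558487 on the minus strand of Rnor_6.0) was at 508 and 553 CPM in young hearts 3 and 13, at 11.4 CPM in young heart 15, and at 1.81, 4.59 and 4.67 CPM in aged hearts 3, 4 and 7. It was thus abundant in a pair of hearts and low in the other 4, and the groups did not overlap. Its log2 fold change was -6.60 (standard error 1.45, unadjusted p = 0.00336, adjusted p = 0.0916 from edgeR with Benjamini-Hochberg adjustment), and with 1 heart left out at a time it lay between -7.13 and -6.14, with an unadjusted p-value under 0.05 in all 6 fits. Young heart 15 had 46.5 times less *Slc2a4* than the mean of the other young hearts, so the spread within the young group was wide (357 ± 300.5 CPM, SD, n = 3). Set against the cardiomyocyte markers, *Slc2a4* stood at 5.91 and 5.79 CPM per 1000 CPM of summed markers in young hearts 3 and 13, at 0.922 in young heart 15, at 0.609 and 0.711 in aged hearts 4 and 7, and at 10.4 in aged heart 3. In 3 of the hearts low in cardiomyocyte markers, *Slc2a4* was therefore lower still than the sum of those markers was, and in aged heart 3 it was not. Single markers differed by unlike amounts, with log2 fold changes from -6.09 for *Myh6* to -2.50 for *Tnnt2*, so the statement is about their sum.

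*Slc2a1* (ENSRNOG00000007284, chromosome 5 from 138154673 to 138182897 on the plus strand) differed the other way. It was at 33.0, 38.1 and 57.9 CPM in young hearts 3, 13 and 15 and at 67.1, 99.1 and 122 CPM in aged hearts 3, 4 and 7. All aged hearts lay above all young hearts, and young heart 15 was nearest to them. The fold change was 2.23, or 1.16 on the log2 scale (standard error 0.314, unadjusted p = 0.00921, adjusted p = 0.0920 from edgeR with Benjamini-Hochberg adjustment), and the unadjusted p-value was under 0.05 in all 6 fits that left out a heart.

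The 2 genes differed in opposite directions, and the leading transporter changed from heart to heart. Per kilobase, *Slc2a4* was at 4.55 CPM in young heart 15 and at 0.721 to 1.87 CPM in aged hearts. Those levels lay below the lowest *Slc2a1* level of any heart (12.7 in young heart 3), so the fall of *Slc2a4* alone changed the lead. Among the 5 glucose transporter genes *Slc2a1*, *Slc2a3*, *Slc2a4*, *Slc2a8* and *Slc2a12*, with counts divided by gene length, *Slc2a4* made up 88.4% and 88.8% in young hearts 3 and 13, 12.7% in young heart 15 and 2.15% to 3.89% in aged hearts. *Slc2a1* made up 5.55% and 5.92%, then 62.3%, and 77.0% to 84.7% in the same order. These shares depend on the family chosen. Over all 10 *Slc2a* genes of the pathway list in the table, *Slc2a4* made up 85.3% and 85.9%, then 9.35%, and 1.44% to 3.04%, and *Slc2a1* made up 5.35% and 5.72%, then 45.9%, and 51.8% to 68.1%, so *Slc2a1* still exceeded *Slc2a4* in the same 4 hearts. Their summed level, on the scale of CPM per kilobase, was 229 and 248 in young hearts 3 and 13, 35.8 in young heart 15 and 33.6 to 55.4 in aged hearts. The switch in share therefore came with a lower total, since the rise of *Slc2a1* was small on this scale (from a mean of 16.6 to 37.0 CPM per kilobase) beside the fall of *Slc2a4* (from 142.6 to 1.47).

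**Figure D2:**
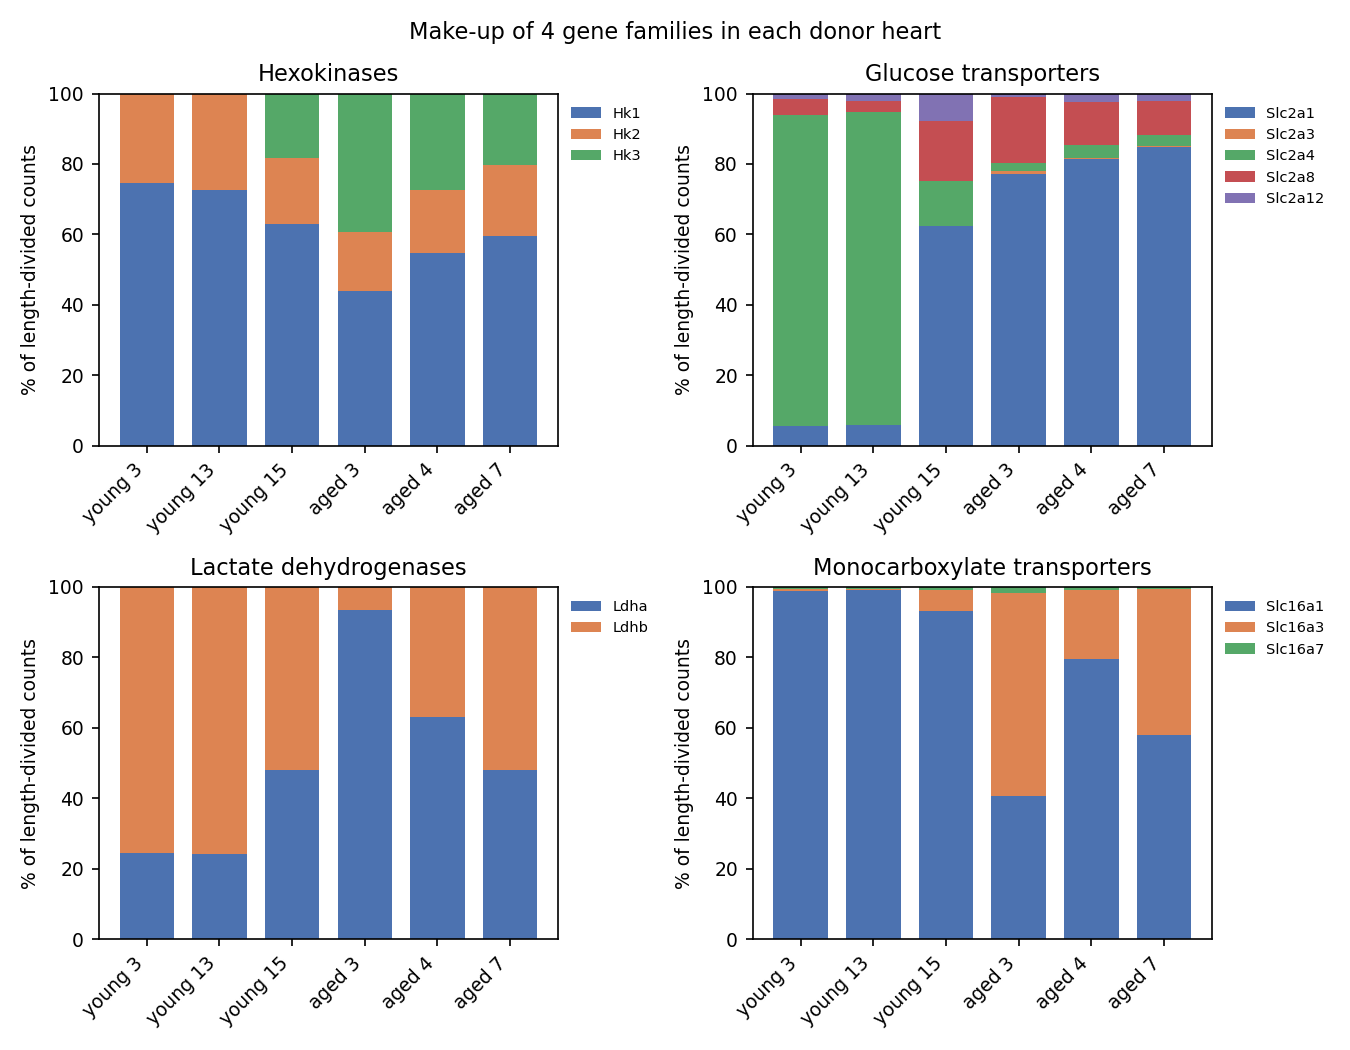
Make-up of 4 gene families in each heart, as a percentage of the length-divided counts of the genes shown. *Slc2a4* and *Ldhb* lead in young hearts 3 and 13, *Slc2a1* leads in young heart 15 and the aged hearts, and *Hk3* and *Slc16a3* take up a visible share in hearts other than young hearts 3 and 13.

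Hexokinases phosphorylate glucose once it has entered the cell. *Hk2* (ENSRNOG00000006116) was at 191, 228 and 135 CPM in young hearts 3, 13 and 15 and at 90.5, 130.0 and 118 CPM in aged hearts 3, 4 and 7. Its log2 fold change was -0.71 (standard error 0.268, unadjusted p = 0.0361, adjusted p = 0.126 from edgeR with Benjamini-Hochberg adjustment). The groups did not overlap, although young heart 15 and aged heart 4 were close. *Hk1* (ENSRNOG00000046891) was at 279, 298 and 223 CPM in young and 117, 197 and 170.1 CPM in aged donor hearts, likewise without overlap, and its log2 fold change was -0.72 (standard error 0.267, unadjusted p = 0.0332, adjusted p = 0.121 from the same edgeR test). On the CPM scale the muscle and the widespread hexokinase were thus lower by about the same factor. Per 1000 CPM of the summed cardiomyocyte markers *Hk2* went the other way, at 2.23, 2.39 and 10.9 in young hearts and 520.3, 17.3 and 18.0 in aged hearts, so it was less reduced than those markers were. Both calls rested on the scaling and on single hearts. With libraries scaled by their totals alone, which moved the median of all genes to 0.46, the log2 fold changes were -0.26 for *Hk1* and -0.22 for *Hk2*, neither past the limits, and relative to that median they were -0.71 and -0.67. Without any 1 of young hearts 3 and 13 or aged hearts 3 and 7, neither gene was past the limits.

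*Hk3* (ENSRNOG00000026235, chromosome 17 from 10137974 to 10152956 on the plus strand) was nearly absent from a pair of young hearts, with 13 and 3 reads in young hearts 3 and 13 (0.786 and 0.191 CPM). It had 1920 reads (79.3 CPM) in young heart 15 and 3903, 3175 and 1844 reads (128, 120.4 and 70.7 CPM) in aged hearts 3, 4 and 7. Young heart 15 lay above aged heart 7, so the groups overlapped. *Hk3* was not past the limits (log2 fold change 1.99, standard error 1.75, unadjusted p = 0.298, adjusted p = 0.429 from edgeR with Benjamini-Hochberg adjustment). The log2 fold change was 7.77 without young heart 15 (adjusted p = 0.00117 in edgeR) and 4.98 in limma-voom with all hearts (unadjusted p = 0.0249). Young heart 15 was also the young heart high in myeloid markers. *Hk3* stood at 1.97 and 0.516 CPM per 1000 CPM of the summed macrophage markers in young hearts 3 and 13, at 33.7 in young heart 15 and at 18.1 to 28.6 in aged hearts. It was therefore low in young hearts 3 and 13 even for their few macrophage marker reads. Against 1000 CPM of the summed neutrophil markers, *Hk3* stood at 45.9, 11.2 and 551 CPM in young hearts 3, 13 and 15. In aged hearts 3, 4 and 7 it stood at 94.8, 339 and 92.2, so young heart 15 was highest on that scale.

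Of the length-divided counts of *Hk1*, *Hk2* and *Hk3*, *Hk3* made up 0.172% and 0.0380% in young hearts 3 and 13, 18.3% in young heart 15 and 20.2% to 39.4% in aged hearts. *Hk1* was the most abundant of the 3 in all 6 hearts, at 62.9% to 74.6% in young and 43.9% to 59.4% in aged donor hearts. *Hk2* made up 18.7% to 27.4% and 16.8% to 20.4%.

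*Pfkfb3* (ENSRNOG00000018911, chromosome 17 from 70684134 to 70713726 on the plus strand) was at 37.7, 46.5 and 88.3 CPM in young hearts 3, 13 and 15 and at 177, 87.7 and 193 CPM in aged hearts 3, 4 and 7. Young heart 15 and aged heart 4 were almost equal and overlapped, and the other hearts were apart. The log2 fold change was 1.41 (standard error 0.440, unadjusted p = 0.0170, adjusted p = 0.0981 from edgeR with Benjamini-Hochberg adjustment). The unadjusted p-value was under 0.05 in 3 of the 6 fits that left out a heart and reached 0.0561 without aged heart 7. *Pfkfb2*, the isoform known from heart, fell from 91.8, 112 and 23.1 CPM to 9.52, 15.1 and 10.2 CPM, a log2 fold change of -2.70 (standard error 0.590, unadjusted p = 0.00323, adjusted p = 0.0916 from edgeR with Benjamini-Hochberg adjustment).

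Promoter sequence was searched for ACGTG, the core of the element bound by hypoxia-inducible factors, which are known to act on several of these genes. RefSeq promoters of build GRCr8, from 250 bases before to 50 bases after the start of transcription, were at hand for 9 of the 10 genes. ACGTG on either strand was found in those of *Slc2a1*, *Hk3*, *Pfkfb3* and *Ldha* and in 1 of the pair given for *Hk1*. That is 5 of the 9 genes and 5 of their 10 promoters, whereas 19.3% of all 33465 promoters of this length hold it. It was not found in those of *Hk2*, *Pdk4*, *Ldhb* and *Slc16a3*. Genes with and without these letters were found among those that rose, those that fell and those not past the limits. Whether hypoxia-inducible factors acted on any of these genes in these hearts was not tested. Counted over both strands, the promoter of *Slc16a1*, which fell and is not among the 10 genes, held 3 matches. That of *Ldha* also held 3 and that of *Pfkfb3* held 2. In each of these promoters, 2 of the matches are a single CACGTG read on both strands. The stretches around a match are shown for the risen genes *Slc2a1* and *Pfkfb3* and, beside them, for *Hk3* and *Ldha*. All 4 genes are on the plus strand. Capitals mark the match, which in *Hk3* is the reverse complement, and the base before the match in *Pfkfb3* and *Ldha* completes CACGTG, the E-box, which overlaps it. A match is a description of the letters and not of binding.
Slc2a1 (chr5:138002459-138002487): gtcccgccccggACGTGgtcctcaggccc
Pfkfb3 (chr17:71944880-71944908): acccttctctccACGTGaaagggggctgg
Hk3 (chr17:9604922-9604950): tgtggggaagtaCACGTtcatgaattagc
Ldha (chr1:106507994-106508022): agcccagcctacACGTGggttcccgcacg

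Lactate dehydrogenase is a tetramer of the *Ldha* and *Ldhb* products. *Ldhb* (ENSRNOG00000013000, chromosome 4 from 176701983 to 176720012 on the minus strand) was at 3217, 3766 and 931 CPM in young hearts 3, 13 and 15 and at 39.6, 623 and 913 CPM in aged hearts 3, 4 and 7. The groups did not overlap, but young heart 15 and aged heart 7 were within a few percent of each other, and aged heart 3 was far below the rest. The log2 fold change was -2.33 (standard error 1.11), and it was not past the limits (unadjusted p = 0.0772, adjusted p = 0.181 from edgeR with Benjamini-Hochberg adjustment). DESeq2 gave an unadjusted p-value of 0.0166 for nearly the same fold change. Per 1000 CPM of the summed cardiomyocyte markers, *Ldhb* stood at 37.4 and 39.5 in young hearts 3 and 13, 75.3 in young heart 15 and 82.7 to 228 in aged hearts. Unlike *Slc2a4* in 3 of these hearts, *Ldhb* was therefore less reduced than the sum of those markers was.

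*Ldha* (ENSRNOG00000013009) varied little. It was at 1250, 1438 and 1028 CPM in young and at 665, 1263 and 1010 CPM in aged hearts 3, 4 and 7, with overlapping groups and a log2 fold change of -0.34 (standard error 0.362, unadjusted p = 0.382, adjusted p = 0.514 from edgeR with Benjamini-Hochberg adjustment). With libraries scaled by their totals alone, the log2 fold change was 0.13, which is -0.33 relative to the shifted median of all genes. Of the length-divided counts of both genes, *Ldha* made up 24.6% and 24.2% in young hearts 3 and 13, 48.0% in young heart 15, and 93.4%, 62.9% and 48.1% in aged hearts 3, 4 and 7. The higher share of *Ldha* came with a lower sum of both genes, which was 3182 and 3709 CPM per kilobase in young hearts 3 and 13, 1337 in young heart 15 and 445 to 1313 in aged hearts.

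Lactate crosses the plasma membrane on monocarboxylate transporters. *Slc16a3* (ENSRNOG00000036677, chromosome 10 from 110138586 to 110148358 on the plus strand) was read 38, 25 and 508 times in young hearts 3, 13 and 15 and 2656, 992 and 2068 times in aged hearts 3, 4 and 7. These counts correspond to 2.30, 1.59 and 20.98 CPM and to 87.2, 37.6 and 79.2 CPM. All aged hearts lay above all young hearts, with young heart 15 in between. The fold change was 8.12, or 3.02 on the log2 scale (standard error 1.03, unadjusted p = 0.0247, adjusted p = 0.109 from edgeR with Benjamini-Hochberg adjustment). The log2 fold change was 5.16 without young heart 15, and without young heart 3, aged heart 3 or aged heart 7 the unadjusted p-value was between 0.0556 and 0.0573. Per 1000 CPM of the summed neutrophil markers, *Slc16a3* stood at 134, 93.3 and 146 in young hearts 3, 13 and 15 and at 64.5, 106 and 103 in aged hearts, so it varied far less relative to those markers than on the CPM scale. Per 1000 CPM of the summed macrophage markers it stood at 5.75, 4.30 and 8.92 in young hearts and 12.3, 8.93 and 21.5 in aged hearts, so the aged hearts still lay above the young hearts, young heart 15 and aged heart 4 being almost equal.

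*Slc16a1*, which encodes MCT1, the transporter through which heart muscle takes up lactate, fell. It was at 394, 399.8 and 381 CPM in young and 70.9, 176 and 129 CPM in aged donor hearts, and its log2 fold change was -1.64 (standard error 0.357, unadjusted p = 0.00313, adjusted p = 0.0916 from edgeR with Benjamini-Hochberg adjustment). Here young heart 15 lay with the other young hearts, unlike for the glucose transporters. *Slc16a3* thereby rose from 0.668%, 0.456% and 5.95% of the length-divided counts of *Slc16a1*, *Slc16a3* and *Slc16a7* to 57.8%, 19.6% and 41.4%.

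On the CPM scale, *Pdk4* (ENSRNOG00000009565) was the gene whose level said least about the donor group. It was at 304, 387 and 108 CPM in young hearts 3, 13 and 15 and at 6.996, 221 and 511 CPM in aged hearts 3, 4 and 7. The highest and the lowest value were both from aged donor hearts, and the aged hearts differed among themselves by a factor of 73.1. The log2 fold change was -0.11 (standard error 1.22, unadjusted p = 0.930, adjusted p = 0.953 from edgeR with Benjamini-Hochberg adjustment), and its sign turned without aged heart 3 (0.47). With libraries scaled by totals alone it was 0.42, which is -0.033 relative to the shifted median of all genes. Per 1000 CPM of the summed cardiomyocyte markers, *Pdk4* stood at 3.54, 4.06 and 8.73 in young hearts 3, 13 and 15. It stood at 40.2, 29.4 and 77.7 in aged hearts 3, 4 and 7, so on that scale the groups did not overlap, as for *Hk2* and *Ldhb*. The related kinases *Pdk1* and *Pdk2* fell (log2 fold changes -2.34 and -2.72, unadjusted p = 0.0209 and 0.0206 from edgeR), while *Pdk3* rose (1.33, unadjusted p = 0.0165 from edgeR).

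A ratio of 2 genes within a heart does not depend on how libraries are scaled, and it was used to set isoforms against each other. Ratios are of counts plus 1, divided by gene length, on a log2 scale. The ratio of *Slc2a1* to *Slc2a4* was -3.99, -3.91 and 2.29 in young hearts 3, 13 and 15 and 5.14, 4.37 and 4.64 in aged hearts 3, 4 and 7, which is -1.87 ± 3.60 against 4.72 ± 0.390 (SD, n = 3 each) and a difference of 6.59. *Slc2a4* thus exceeded *Slc2a1* in young hearts 3 and 13 only, and *Slc2a1* exceeded *Slc2a4* in the other 4. The ratio of *Ldha* to *Ldhb* was -1.62, -1.64 and -0.113 in young hearts and 3.81, 0.76 and -0.110 in aged hearts, which is -1.13 ± 0.877 against 1.49 ± 2.06 (SD, n = 3 each). Aged heart 7 lay barely above young heart 15, so the lack of overlap in this pair is marginal.

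The ratio of *Hk3* to *Hk2* rose by a mean of 6.01, from -7.09, -9.08 and -0.033 to 1.23, 0.62 and -0.013, and here too young heart 15 and aged heart 7 were nearly equal. The ratio of *Slc16a3* to *Slc16a1* was -7.17, -7.70 and -3.97 in young and 0.51, -2.02 and -0.49 in aged hearts, a difference of 5.62 with a clear gap. In each of these 4 pairs all aged hearts lay above all young hearts, and each gave an exact permutation p of 0.1, two-sided, the smallest that 3 hearts against 3 allow (0.125 after Benjamini-Hochberg adjustment over the 5 pairs). The ratio of *Hk1* to *Hk2* behaved otherwise. It was 1.56, 1.40 and 1.75 in young and 1.39, 1.62 and 1.54 in aged hearts, which is 1.57 ± 0.173 against 1.52 ± 0.119 (SD, n = 3 each, exact permutation test, two-sided, p = 0.7), and the difference of -0.054 was smaller than the spread between hearts.

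The same ratios were formed for 10 further pairs of the pathway. In 5 of them all aged hearts lay above all young hearts, in 0 all lay below, and 5 overlapped. The 5 were *Pfkl* to *Pfkm* (a difference of 3.64), *Pfkfb3* to *Pfkfb2* (3.87), *Pgam1* to *Pgam2* (4.15), *Eno1* to *Eno3* (4.25) and *Pygl* to *Pygm* (6.19), each with an exact permutation p of 0.1, two-sided, and 0.2 after adjustment over the 10 pairs. In each of these the denominator is the muscle isoform of phosphofructokinase, phosphoglycerate mutase, enolase or glycogen phosphorylase, or the heart isoform of the bifunctional enzyme. The ratios of *Pfkp* to *Pfkm*, *Aldoc* to *Aldoa* and *Pygb* to *Pygm* differed by 3.51, 0.78 and 1.77 with overlap, and those of *Pdk1* and *Pdk2* to *Pdk4* by -0.78 and -1.65. Young heart 15 lay between the other young hearts and the aged hearts in 4 of the 5 pairs of the genes described here and in 5 of the 10 further pairs, and without it 8 of the 10 further pairs did not overlap. No share over other pairs of genes was computed as a background for these counts. Of single genes tested, 41.6% did not overlap with all 6 hearts kept, 21.0% higher and 20.6% lower.

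**Figure D3:**
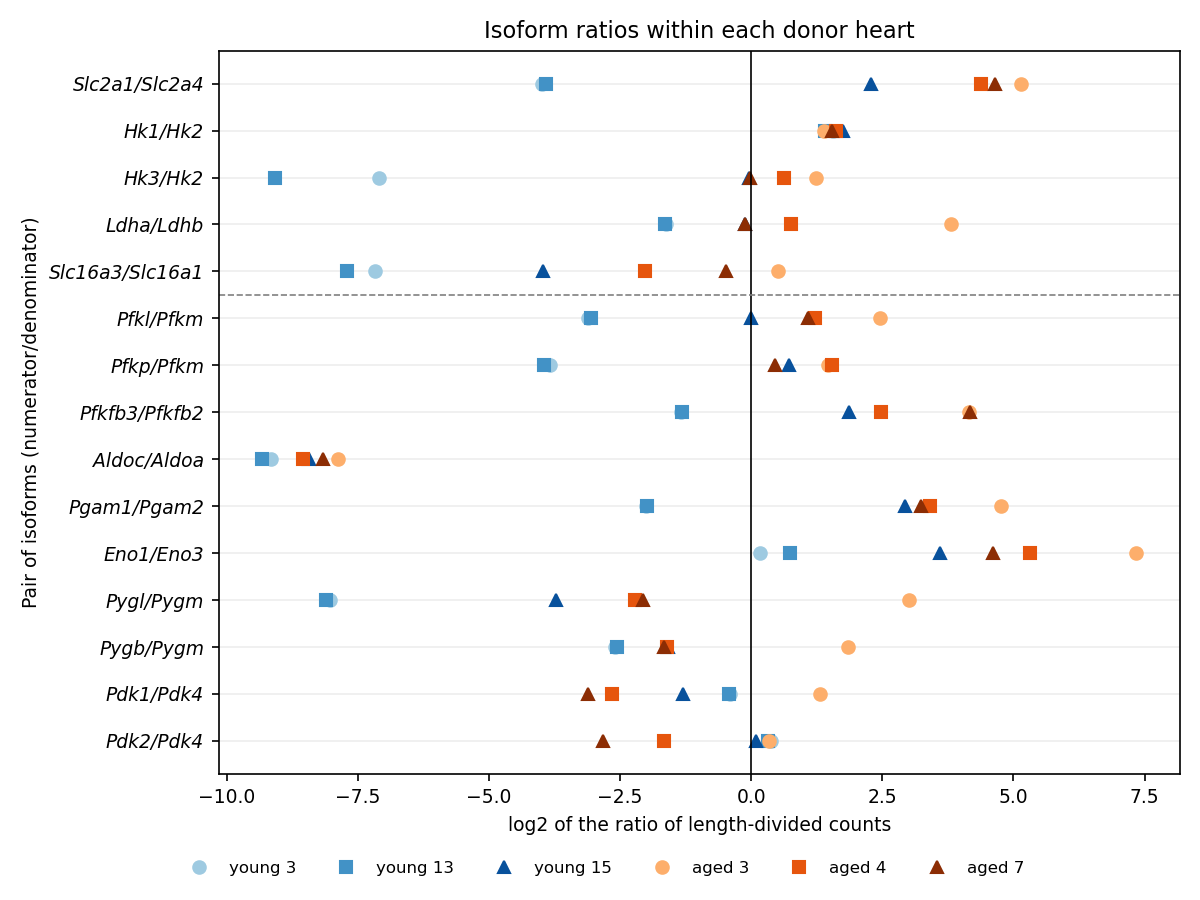
Ratio of isoforms in each heart, as log2 of length-divided counts, with the 5 pairs of the genes described here above the dashed line and 10 further pairs below it. Young hearts 3 and 13 lie together on the left in most pairs, young heart 15 lies between them and the aged hearts or among the aged hearts, and all 6 hearts coincide for *Hk1* to *Hk2*.

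The isoforms were also counted by themselves, on the CPM scale. Of 9 heart and muscle isoforms, 8 fell and 0 rose, against 19.0% and 13.2% of all genes tested. The median log2 fold change of the 9 was -3.66. In all 9 the aged hearts lay below the young hearts, where 20.6% of all genes tested did so. The 9 were *Slc2a4*, *Hk2*, *Pfkm*, *Pfkfb2*, *Pgam2*, *Eno3*, *Ldhb*, *Slc16a1* and *Pygm*. They included *Pfkm* (log2 fold change -3.71, standard error 0.918), *Pgam2* (-4.48, standard error 1.16), *Eno3* (-3.75, standard error 1.04) and *Pygm* (-3.66, standard error 1.23), and *Ldhb* was the 1 not past the limits. The count depends on the list, which does not hold *Aldoa*, the aldolase of muscle, whose groups overlapped (log2 fold change -1.08, standard error 0.497, unadjusted p = 0.0698, adjusted p = 0.172 from edgeR with Benjamini-Hochberg adjustment). The lists also place *Slc16a1* among the 9, and *Ldha*, *Slc16a3* and *Pygb* among the other isoforms. With *Slc16a3* placed among the muscle isoforms, that list would hold a gene that rose. With *Pygb* placed there, it would hold a further gene that fell without overlap (log2 fold change -2.43). *Pygb* was at 384, 435 and 106 CPM in young hearts 3, 13 and 15 and at 42.4 to 65.4 CPM in aged hearts. In *Pfkm* young heart 15 was again far below the other young hearts, with 901 and 991 CPM in young hearts 3 and 13, 111 in young heart 15 and 21.2, 62.6 and 69.3 in aged hearts 3, 4 and 7. Of 12 other isoforms, 4 rose, 2 fell and 6 were not past the limits, with a median of 0.48. Among all genes tested, 13.2% rose and 19.0% fell by the same limits. Those that rose were *Slc2a1*, *Pfkfb3*, *Slc16a3* and *Pygl*, the phosphorylase known from liver (from 6.11, 6.36 and 16.7 to 66.3, 29.0 and 34.0 CPM), and those that fell were *Hk1* and *Pygb*. *Pfkl*, *Pgam1* and *Eno1* had log2 fold changes of 0.29, 0.40 and 0.56, none past the limits. After adjustment 0 genes of either list had an adjusted p-value under 0.05 in edgeR or limma-voom, while 8 and 6 had an unadjusted one in edgeR and DESeq2 gave 7 and 5 below 0.05 after adjustment.

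**Figure D4:**
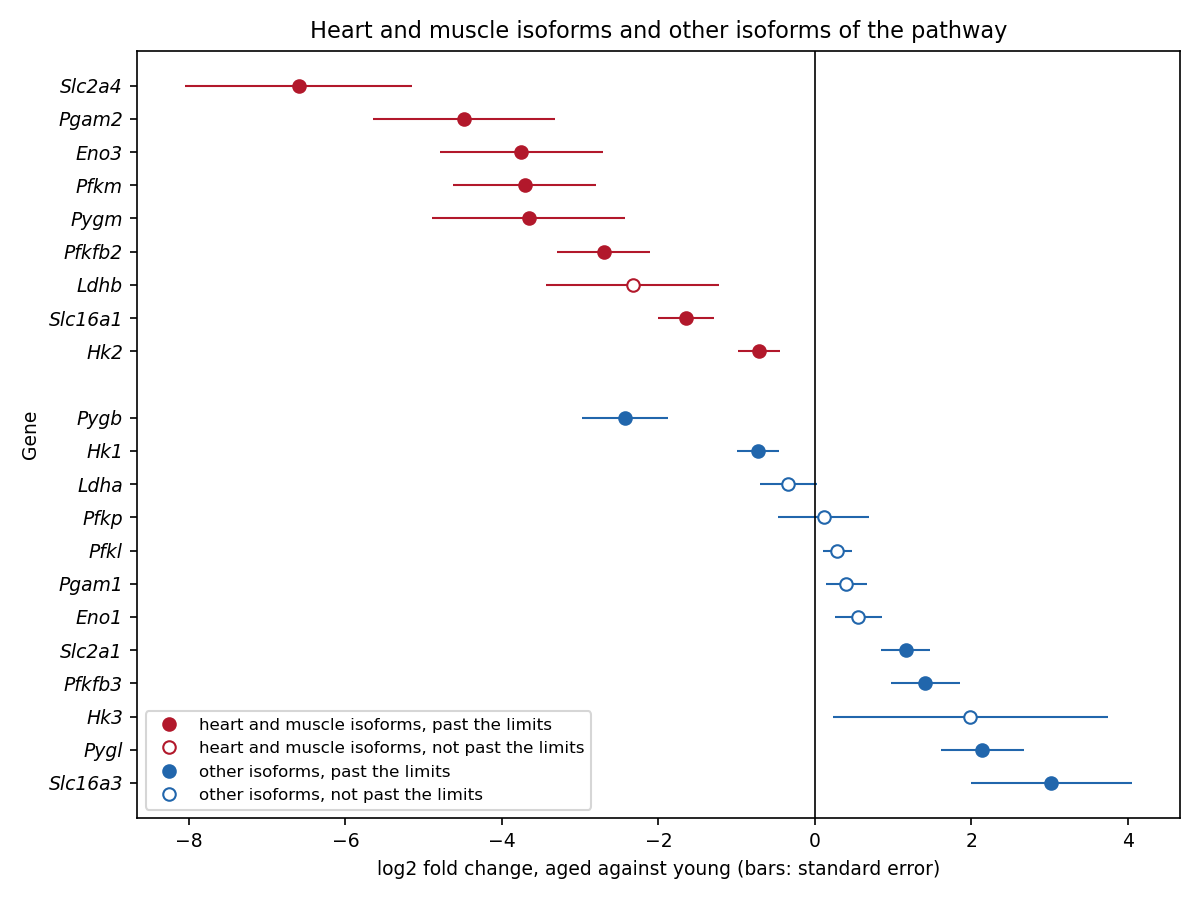
Log2 fold change of aged against young donor hearts with its standard error from edgeR for 9 heart and muscle isoforms (red) and 12 other isoforms (blue), filled where past the study's limits. All 9 red points lie below 0, from -6.60 to -0.71, and the blue points run from -2.43 to 3.02.

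Beyond the 10 genes, 64 others of glucose transport, glycolysis, pyruvate oxidation, lactate handling and glycogen metabolism were in the table, and 56 of them had enough reads to be tested. Of the 56, 30 fell, 6 rose and 20 were not past the limits, with a median log2 fold change of -1.11, against 19.0% lower and 13.2% higher among all genes tested. By edgeR with adjustment 0 had an adjusted p-value under 0.05 (36 had an unadjusted one), limma-voom gave 0 and DESeq2 gave 35. Apart from the isoforms above, among the largest falls without overlap were those of *Phkg1*, the catalytic subunit of muscle phosphorylase kinase (log2 fold change -4.51), *Pdhb*, a subunit of pyruvate dehydrogenase (-2.61), *Gys1*, the muscle glycogen synthase (-2.55), and *Mpc1*, a subunit of the mitochondrial pyruvate carrier (-2.44). For *Pdhb* the levels were 583, 651 and 140.4 CPM in young hearts 3, 13 and 15 and 43.6, 92.6 and 89.5 CPM in aged hearts 3, 4 and 7. The other subunits of the complex, *Pdha1* (-2.17), *Dlat* (-2.05), *Dld* (-1.92) and *Pdhx* (-2.09), and the partner of *Mpc1*, *Mpc2* (-2.06), also fell. These 5 genes are named because they share a complex or carrier with *Pdhb* or *Mpc1*, and were picked once their values had been seen.

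Among the largest rises without overlap were those of *Slc2a5*, a fructose transporter (log2 fold change 1.53), *Slc2a9*, known as a urate transporter (1.38), *Pdk3* (1.33) and *Pfkfb1* (1.31). *Pdk3* was at 8.83, 5.91 and 15.2 CPM in young hearts 3, 13 and 15 and at 33.7, 18.3 and 23.8 CPM in aged hearts 3, 4 and 7. *Slc2a5* and *Pfkfb1* stayed at or below 3.15 CPM in every heart and rest on few reads. Of 4 further enzymes of glycolysis, likewise picked after their values were seen, *Tpi1* fell (log2 fold change -1.14) with overlapping groups, and *Pkm* (0.36), *Pgk1* (-0.29) and *Gpi* (-0.60) were not past the limits.

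**Figure D5:**
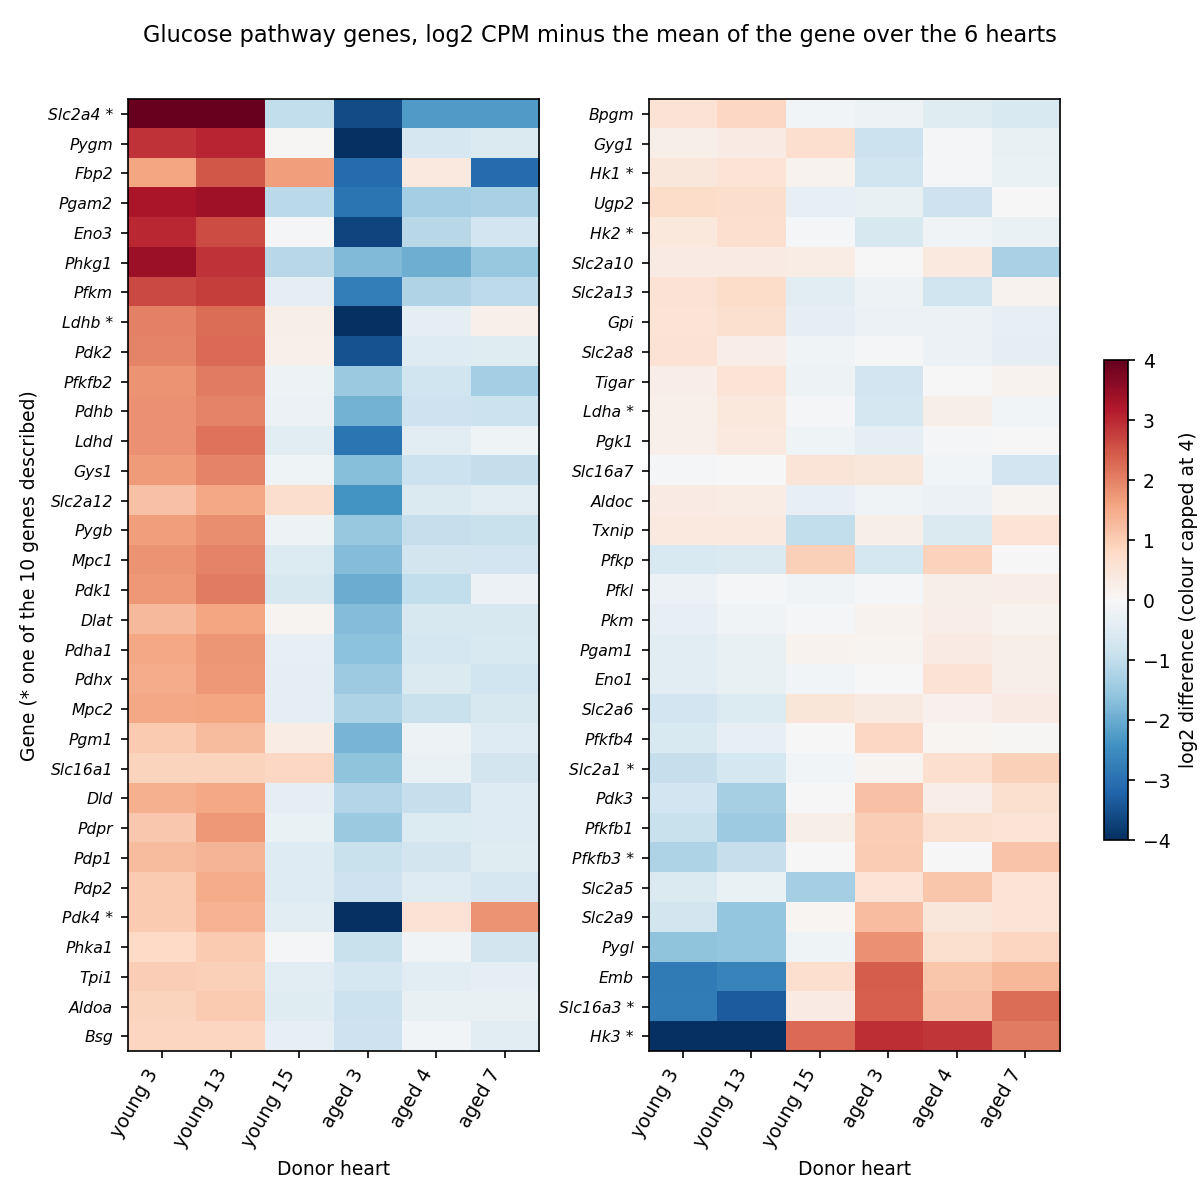
Log2 CPM of tested genes of the pathway in each heart minus the mean of that gene over the 6 hearts, with genes ordered by the difference between groups and the 10 genes described here marked by an asterisk. Most genes in the left column are red in young hearts 3 and 13 and pale or blue elsewhere, *Pdk4* is dark blue in aged heart 3 alone, and *Hk3* and *Slc16a3* close the list at the lower right.

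For the extremes of the 10 genes, the genes with the most similar course over the 6 hearts were sought among 10929 tested genes with a mean of at least 5 CPM, by the root mean square difference of gene-centred log2 CPM. Those nearest to *Slc2a4* were *Wfdc1* (a difference of 0.459 on the log2 scale), *Asb10* (0.519) and *Perm1* (0.531). *Perm1*, a regulator of muscle energy metabolism, was at 434, 518 and 26.0 CPM in young hearts 3, 13 and 15 and at 1.25, 5.27 and 4.90 CPM in aged hearts 3, 4 and 7. Those nearest to *Hk3* were the chemokine gene *Ccl12* (0.403), *Gpnmb* (0.543), a glycoprotein gene expressed by macrophages, and *Il1rn* (0.577), the interleukin-1 receptor antagonist. *Gpnmb* was at 15.5 and 14.1 CPM in young hearts 3 and 13, 1385 in young heart 15 and 1472 to 2428 CPM in aged hearts. These 6 genes share the libraries, their depth and their scaling with the genes they were matched to.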

How the data were processed

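The deposited table holds, for each rat gene, the raw read count and the FPKM value in each of 6 hearts. The deposited counts were made by the authors without normalization, and the FPKM values deposited beside them scale the same count to gene length and library total. Per the labels, the submitters' processing notes list HISAT2 2.0.5, StringTie 1.3.3b, featureCounts 1.5.0-p3, DESeq2 1.16.1 and the build Rnor_6.0, and the use of strand is not given in the sources used here. The counts as deposited were tested with edgeR 4.0.16 under R 4.3.3 (filterByExpr, TMM scaling, quasi-likelihood test without covariates, two-sided), with limma 3.58.1 (voom) and DESeq2 1.42.0 as alternatives, and the steps were tested on simulated data. The simulation gave all genes a single dispersion (the spread between hearts beyond sampling noise) and had no library that stood apart. It therefore does not show how the steps behave under the spread seen here. Log2 CPM used a prior count of 2. Standard errors were derived from the log2 fold change and the square root of its F statistic. Single ratios were compared by exact permutation over the hearts. Between the most alike hearts, young 3 and 13, counts varied beyond sampling noise (a chi-square of 10.2 per degree of freedom), and all 6 hearts were kept.

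The genes, lists, pairs and tests were chosen with earlier results of these data known. The genes named are the 10 genes, both genes of each pair, the 5 largest rises and 5 largest falls past the limits without overlap among the other pathway genes, and the 3 genes most like *Hk3* and *Slc2a4*, and a few genes that this rule names are not reported here. The values per marker sum, the promoter motif and the gene families shown as shares were chosen after values were seen. *Hkdc1* and *Gapdh* of the pathway list were not matched by name. Of the marker lists, endothelial (0 higher and 1 lower of 7 tested), fibroblast (0 and 2 of 5), red blood cell (0 and 1 of 5) and skeletal muscle markers (0 and 0 of 4) were also counted. The shares over all genes tested were 13.2% higher and 19.0% lower. Promoter sequences are those of RefSeq, build GRCr8, and no coordinate was converted between builds. No statement in the labels ties the hearts to separate litters or batches, so p-values measure the spread between these 6 hearts.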

Additional observations from a re-analysis of the deposited data

How the results depend on the processing

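No paired analysis was possible because the groups share only the number 3, which names different animals. With a Benjamini-Hochberg adjusted p in place of the unadjusted one, all counts past the limits became 0 in edgeR. With libraries scaled by totals alone, 1 of the 10 genes was lower instead of 3 and 1 of the 12 other isoforms instead of 2, *Pdk4* was at 0.42 and *Ldha* at 0.13 (-0.033 and -0.33 relative to the median of all genes, which this scaling moved to 0.46), and among all genes 3147 were higher and 1441 lower instead of 1815 and 2621. Leaving out 1 heart at a time moved the share of all genes past the limits from 5.83% to 26.9% higher and from 11.5% to 24.2% lower, lowest without young heart 3 and highest without young heart 15. It gave 1 to 4 of the 10 genes higher (1 without young heart 3 or aged heart 7, 4 without young heart 15) and 1 to 3 lower (1 without young heart 3, young heart 13, aged heart 3 or aged heart 7). It gave 7 to 8 heart and muscle isoforms lower, 2 to 7 other isoforms higher (2 without young heart 3 or aged heart 7, 7 without young heart 15) and 1 to 2 lower (1 without young heart 3, young heart 13, aged heart 3 or aged heart 7), and 2 to 10 other pathway genes higher (2 without young heart 3 or aged heart 3, 10 without young heart 15) and 23 to 36 lower. Differences of ratios ran from 5.53 to 8.67 for *Slc2a1* to *Slc2a4*, 4.17 to 8.70 for *Hk3* to *Hk2*, 1.45 to 3.41 for *Ldha* to *Ldhb*, 4.91 to 6.77 for *Slc16a3* to *Slc16a1* and -0.14 to 0.035 for *Hk1* to *Hk2*, which turned positive without young heart 15 (0.035) and without aged heart 3 (0.011). *Pdk4* ran from -1.21 to 0.47 and turned positive without young heart 13 (0.26) and without aged heart 3 (0.47). The further pairs without overlap numbered 5 to 8, with 8 without young heart 15. Another alternative, chosen after seeing the data, left out young heart 15 and aged heart 3. There, 11 of 59 other pathway genes were higher and 37 lower. Of the 12 other isoforms 8 were higher and 2 lower, where 27.2% of all genes tested were higher and 26.2% lower. With those hearts left out, *Pdk4* was at 0.13 and the difference of *Hk1* to *Hk2* at 0.0995. With a pseudocount of 10 counts or the deposited FPKM values, the differences of ratios moved by less than the SD of either group, with 1 exception. That of *Hk3* to *Hk2* was 5.21 with a pseudocount of 10 counts instead of 6.01. The SD of that ratio was 4.75 in young and 0.622 in aged hearts. The cause of these shifts was not tested beyond the change of setting itself. With 3 hearts a group, an exact test of a single value cannot fall below 0.1.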
